A study of Mus musculus with 14 samples.

Results

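The 7 genes described here were Slc16a1, Slc16a3, Slc16a6, Slc16a7, Slc16a9, Slc16a11 and Slc16a13 of the monocarboxylate transporter (Slc16) family, taken by symbol from 23337 gene rows. The set was chosen by measured values of these data, namely the genotype response of Slc16a11, which differed between the brain regions. Its genotype values, and every comparison of genotype effects between the regions, are therefore given as descriptions with no test. RNA sequencing had been run on dissected cerebellum, with 4 Thap1 conditional knockout (cKO) and 4 wildtype (WT) samples, and on dissected striatum, with 3 Thap1 cKO and 3 WT samples. All 14 samples came from mice aged 6 months on the C57Bl/6 background, and the WT mice were littermates of the cKO mice. Not given in the sources used here are the Cre line, which exons of Thap1 it removes, the sequencing batches and whether every sample is its own animal. The p-values therefore speak only of the spread among these samples.

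Monocarboxylate transporters move small organic acids such as lactate, pyruvate and ketone bodies across the cell membrane, in the best known members together with a proton. In the brain, glia and blood vessels use them to pass lactate and ketone bodies to neurons, and other members of the family carry carnitine, creatine or aromatic amino acids. Thap1 encodes a zinc finger transcription factor, and mutations of the human gene cause a dystonia.

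Slc16a11 lies on chromosome 11 of GRCm38 (GENCODE vM21) at 70212752 to 70216417 on the plus strand, and Slc16a13 lies at 70216789 to 70221064 on the minus strand. The genes point at each other and are 371 bases apart. The promoter window of Slc16a11 is shown because this gene had the opposite genotype differences in the 2 regions, and that of Slc16a10, an aromatic amino acid carrier, because it was the family gene with a called genotype change. Both come from RefSeq (GRCm38.p6), read 5′ to 3′ on the gene's own strand over 250 bases before and 50 after the annotated start, at chr11:70213660-70213959 (plus strand) and chr10:40142205-40142504 (minus strand). Capitals mark matches, on either strand, to TNNGGGNA or TNNGGGNT, forms of the consensus bound by human THAP1, where N is any base.
Slc16a11: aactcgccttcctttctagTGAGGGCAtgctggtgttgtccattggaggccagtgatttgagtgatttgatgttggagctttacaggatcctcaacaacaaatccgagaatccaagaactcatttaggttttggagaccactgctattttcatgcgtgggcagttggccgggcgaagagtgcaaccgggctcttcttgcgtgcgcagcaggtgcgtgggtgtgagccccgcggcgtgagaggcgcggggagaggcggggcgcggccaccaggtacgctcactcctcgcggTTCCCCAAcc
Slc16a10: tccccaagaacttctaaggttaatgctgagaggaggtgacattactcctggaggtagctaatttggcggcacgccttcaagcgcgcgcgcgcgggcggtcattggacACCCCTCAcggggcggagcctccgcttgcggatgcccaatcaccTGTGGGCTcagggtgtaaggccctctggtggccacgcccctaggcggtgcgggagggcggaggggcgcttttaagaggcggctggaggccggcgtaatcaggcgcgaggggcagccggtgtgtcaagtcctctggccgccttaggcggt
The Slc16a11 window held 2 matches, both to TNNGGGNA, and the Slc16a10 window held 2, both to TNNGGGNT. Such matches are common, since 46.5% of 32851 promoter windows of this length held TNNGGGNA, 45.3% held TNNGGGNT and 70.2% held one or the other, and a match is a description and not a shown binding site. The RefSeq start used for Slc16a11 lies inside the GENCODE span of the gene. Windows were at hand for 4 of the 7 genes and for 5 of the 6 other family genes described.

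Levels are CPM, read counts scaled to library size with TMM factors over all 14 libraries. Library totals ran from 19860775 to 28099205 counts in cerebellar cKO and from 19458954 to 24331760 in cerebellar WT, and from 12659013 to 14258141 in striatal cKO and from 12595941 to 13499875 in striatal WT. Thap1 itself averaged 7.02 ± 0.360 CPM in cerebellar cKO and 8.95 ± 1.21 in cerebellar WT (SD, n = 4 each), and 5.89 ± 2.07 CPM in striatal cKO and 15.1 ± 1.202 in striatal WT (SD, n = 3 each), with no overlap of the genotypes in either region. Its log2 fold change was -0.34 in cerebellum (edgeR adjusted p = 0.0488) and -1.36 in striatum (edgeR adjusted p = 0.0562). Neuron markers matched the labelled regions, with 7 of 7 granule cell markers higher in cerebellum and 8 of 8 projection neuron markers higher in striatum. The library of striatal WT replicate 1 stood apart from the other 2 of its group, with chi-square values per degree of freedom of 27.2 and 26.9, against 6.52 between those 2. Several striatal values of the 7 genes are therefore also given without it. Marker and per-length values, and most values of other genes, keep all libraries.

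**Figure D1:**
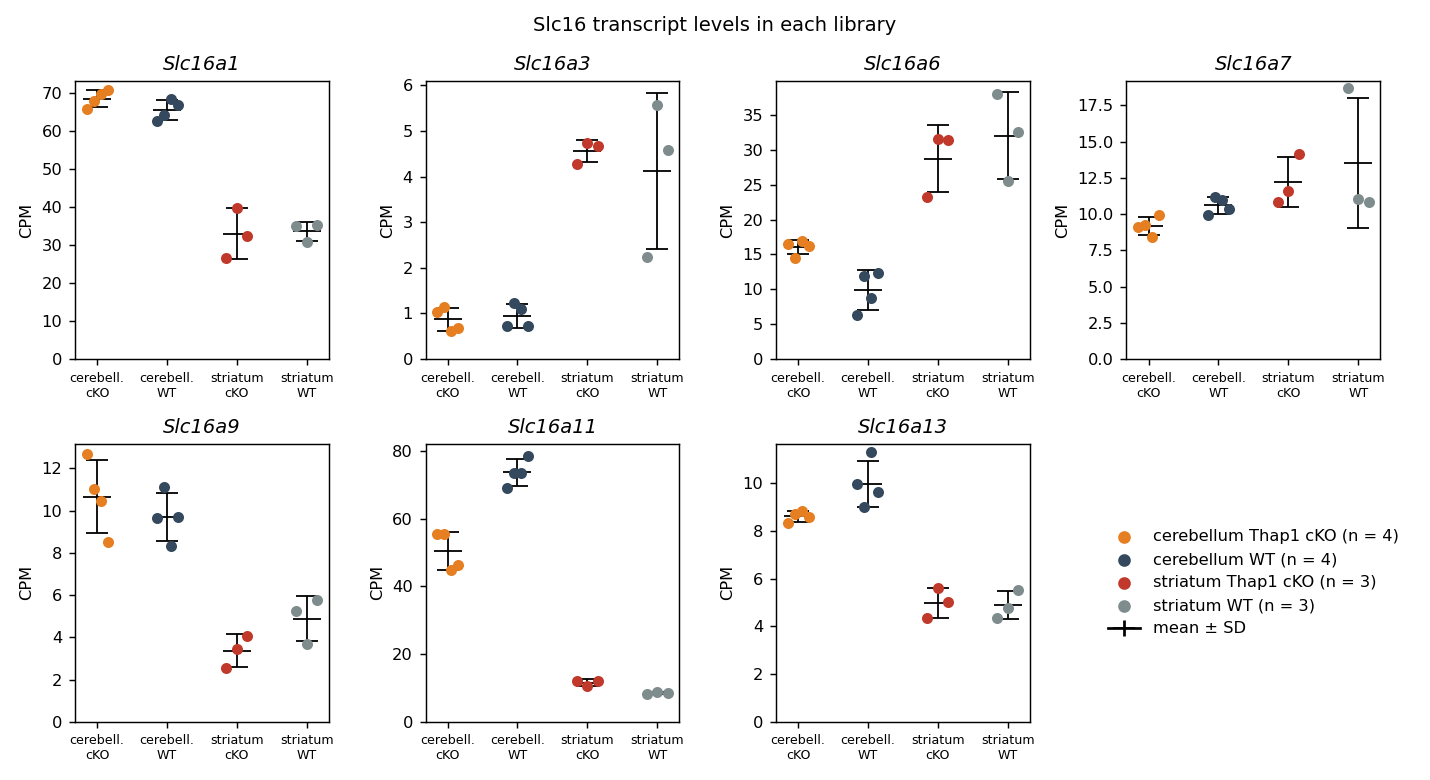
CPM of each of the 7 Slc16 genes in every library, by region and genotype, with points for libraries and bars for the mean ± SD (n = 4 in each cerebellar and n = 3 in each striatal group). Slc16a11 sits at 44.9 to 55.4 CPM in cerebellar cKO, below every cerebellar WT library, and at 10.4 to 12.2 CPM in striatal cKO, above every striatal WT library.

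Slc16a11 encodes a transporter that carries pyruvate with protons in human cells. It had 55.4, 55.4, 44.9 and 46.2 CPM in the 4 cerebellar cKO libraries, against 69.0, 73.6, 73.6 and 78.7 CPM in the 4 cerebellar WT libraries. In striatum it had 12.2, 10.4 and 12.1 CPM in the cKO libraries, against 8.30, 8.77 and 8.47 CPM in the WT libraries. Every cerebellar cKO library was below every cerebellar WT library, and every striatal cKO library was above every striatal WT library. The cerebellar cKO level was 68.8% of WT (log2 fold change -0.54, SE 0.0727), and the striatal cKO level was 135% of WT (log2 fold change 0.43, SE 0.139, and 0.42 without striatal WT replicate 1). The striatal values rest on 130 to 168 counts in cKO libraries and 97 to 112 in WT libraries. The cerebellar log2 fold change minus the striatal one was -0.99 (SE 0.138), and -1.06 to -0.92 over 19 alternative settings. This is the contrast by which the gene was chosen, in which 0.39% of 15401 genes were called, so nothing is read from it.

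Slc16a11 also differed between the regions. With both genotypes averaged, it was 6.08-fold higher in cerebellum than in striatum (log2 difference 2.60, SE 0.0698, edgeR adjusted p = 2.885e-15), with every cerebellar library above every striatal one. Cerebellum and striatum cannot be told apart here from anything that was handled by region. In these dissected tissues, fewer cells of a type and less RNA per cell cannot be told apart either.

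Slc16a1 encodes MCT1, the widely expressed carrier of lactate, pyruvate and ketone bodies found on glia and brain vessels. It had 65.8, 67.9, 69.8 and 71.0 CPM in cerebellar cKO libraries, against 62.7, 64.4, 68.6 and 66.9 CPM in cerebellar WT libraries. The striatal libraries had 26.6, 39.9 and 32.5 CPM in cKO libraries, against 34.9, 30.9 and 35.3 CPM in WT libraries. The genotypes overlapped in both regions, while all cerebellar libraries lay above all striatal ones. Slc16a1 was higher in cerebellum by 1.00 on the log2 scale (SE 0.0708, edgeR adjusted p = 1.261e-09). Its genotype log2 fold changes were 0.08 in cerebellum (SE 0.0407, edgeR adjusted p = 0.293) and -0.04 in striatum (SE 0.152, edgeR adjusted p = 0.954).

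Slc16a7 encodes MCT2, a high-affinity carrier best known from neurons. It had 9.11, 9.25, 8.39 and 9.93 CPM in cerebellar cKO libraries, against 9.92, 11.2, 10.99 and 10.3 CPM in cerebellar WT libraries. Striatal levels were 10.9, 11.6 and 14.2 CPM in cKO libraries, against 18.7, 11.04 and 10.8 CPM in WT libraries. The highest cerebellar cKO library and the lowest cerebellar WT library were level, and the high striatal WT value was the library that stood apart. Slc16a7 was lower in cerebellum by a log2 difference of -0.39 (SE 0.113, edgeR adjusted p = 0.00455), with overlap between the regions, and by -0.24 without striatal WT replicate 1. Its genotype log2 fold changes were -0.20 in cerebellum (SE 0.0794, edgeR adjusted p = 0.152) and -0.15 in striatum (SE 0.228, edgeR adjusted p = 0.866), the striatal one 0.16 without striatal WT replicate 1.

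Slc16a3 encodes MCT4, which exports lactate from strongly glycolytic cells. It was the scarcest of the 7 in cerebellum, with 1.04, 1.14, 0.618 and 0.682 CPM in cKO libraries, against 0.719, 1.23, 1.09 and 0.716 CPM in WT libraries, or 15 to 26 counts a library. In striatum it had 4.27, 4.73 and 4.66 CPM in cKO libraries, against 2.23, 5.56 and 4.57 CPM in WT libraries. The genotypes overlapped in both regions, and every striatal library was above every cerebellar one. Slc16a3 was lower in cerebellum by a log2 difference of -2.29 (SE 0.207, edgeR adjusted p = 2.979e-08), the largest drop of the 7. Its genotype log2 fold changes were -0.12 in cerebellum (SE 0.273, edgeR adjusted p = 0.854) and 0.13 in striatum (SE 0.300, edgeR adjusted p = 0.911), the striatal one -0.16 without striatal WT replicate 1.

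Slc16a6 encodes MCT7, known from zebrafish as an exporter of the ketone body beta-hydroxybutyrate from liver. It had 16.5, 14.6, 17.0 and 16.2 CPM in cerebellar cKO libraries, against 6.28, 11.9, 8.76 and 12.4 CPM in cerebellar WT libraries. In striatum it had 23.2, 31.6 and 31.5 CPM in cKO libraries, against 38.0, 25.5 and 32.5 CPM in WT libraries. All 4 cerebellar cKO libraries lay above all 4 cerebellar WT libraries, the striatal genotypes overlapped, and all striatal libraries were above all cerebellar ones. The cerebellar cKO level was 164% of WT, a log2 fold change of 0.71 (SE 0.192) that missed the threshold (edgeR adjusted p = 0.0687). With the same libraries DESeq2 gave 0.72 (adjusted p = 0.000213) and limma-voom 0.75 (adjusted p = 0.0116). The call depended on which WT library was left out. The edgeR adjusted p was 0.00769 without cerebellar WT replicate 1 (log2 fold change 0.55) and 0.0310 without cerebellar WT replicate 4 (0.85). Over all 14 alternatives the adjusted p ran from 0.000213 to 0.170 and the log2 fold change from 0.55 to 0.85, all positive. In striatum the log2 fold change was -0.16 (SE 0.175, edgeR adjusted p = 0.825), and -0.01 without striatal WT replicate 1. Slc16a6 was lower in cerebellum than in striatum by a log2 difference of -1.28 (SE 0.137, edgeR adjusted p = 5.3e-07).

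The Slc16a6 counts are uncertain, because the strand setting of the counting is not given and the gene shares exon bases with genes on the other strand. It lies on chromosome 11 at 109450855 to 109473598 on the minus strand and shares 1052 exon bases with Amz2, which encodes a metalloprotease, and 48 with Arsg, which encodes a lysosomal sulfatase. Amz2 averaged 45.3 ± 1.30 CPM in cerebellar cKO and 47.5 ± 1.92 in cerebellar WT (SD, n = 4 each), which gave -0.06 on the log2 scale (edgeR adjusted p = 0.461). Arsg had a log2 fold change of -0.01 in cerebellum (edgeR adjusted p = 0.960). In striatum Arsg averaged 29.9 ± 6.52 CPM in cKO and 43.2 ± 3.71 in WT (SD, n = 3 each), which gave -0.54 on the log2 scale with no overlap of the genotypes (edgeR adjusted p = 0.391). Thus neither neighbour had the cerebellar difference of Slc16a6, and the part of shared reads in its counts was not tested. Slc16a9 shares 491 exon bases with the antisense RNA gene Gm7097 and 419 with the pseudogene Gm9877, and Slc16a7 shares 179 with Gm47862, none of which was counted as a row of its own.

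Slc16a9 encodes MCT9, linked in humans to the efflux of carnitine. It had 12.7, 11.01, 10.47 and 8.49 CPM in cerebellar cKO libraries, against 9.63, 11.1, 8.32 and 9.70 CPM in cerebellar WT libraries. Its striatal levels were 2.53, 3.45 and 4.08 CPM in cKO libraries, against 5.22, 3.68 and 5.76 CPM in WT libraries, or 35 to 49 and 47 to 68 counts. The genotypes overlapped in both regions, and all cerebellar libraries were above all striatal ones. Slc16a9 was higher in cerebellum by 1.32 on the log2 scale (SE 0.134, edgeR adjusted p = 1.296e-07). Its genotype log2 fold changes were 0.14 in cerebellum (SE 0.118, edgeR adjusted p = 0.520) and -0.55 in striatum (SE 0.257, edgeR adjusted p = 0.722).

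Slc16a13 encodes MCT13, a lactate carrier, and its human counterpart lies beside SLC16A11 at a locus associated with type 2 diabetes. It had 8.31, 8.73, 8.85 and 8.56 CPM in cerebellar cKO libraries, against 9.97, 8.99, 11.3 and 9.62 CPM in cerebellar WT libraries. In striatum it had 4.35, 5.61 and 4.998 CPM in cKO libraries, against 4.37, 4.78 and 5.51 CPM in WT libraries. Every cerebellar cKO library was below every cerebellar WT library, by a small margin, and the striatal genotypes overlapped. The cerebellar log2 fold change of -0.20 did not pass the test (SE 0.0833, edgeR adjusted p = 0.165), and the striatal one was 0.02 (SE 0.192, edgeR adjusted p = 0.978). Slc16a13 was higher in cerebellum by 0.90 on the log2 scale (SE 0.0865, edgeR adjusted p = 6.853e-08).

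Of the 6 genes other than Slc16a11, 0 were called between genotypes in cerebellum, where 7.59% of all 14775 genes tested were called. At an unadjusted p under 0.05 there were 3 of the 6 (Slc16a6, Slc16a7 and Slc16a13), against 22.5% of all genes, and DESeq2 and limma-voom each called 1, Slc16a6. Slc16a6 and Slc16a13 were the 2 of 6 whose cerebellar genotypes did not overlap, 1 higher and 1 lower in cKO, against 14.2% of all genes (5.21% higher and 9.03% lower). In striatum 0 of the 6 were called by edgeR, DESeq2 or limma-voom, 0 had an unadjusted p under 0.05, and the genotypes overlapped for all 6. In striatum 0.384% of 14080 genes were called, 7.24% had an unadjusted p under 0.05 and 15.1% did not overlap. All 7 genes passed the filter on low counts in both regions.

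**Figure D2:**
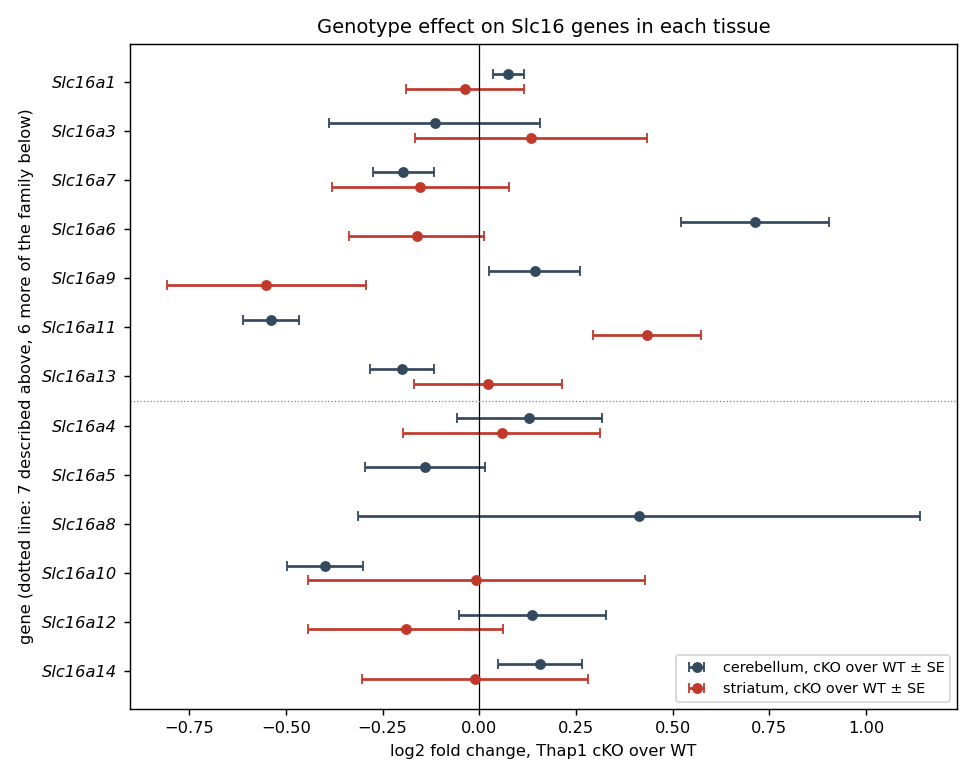
Log2 fold change, Thap1 cKO over WT, with its SE, for the 7 genes (above the dotted line) and 6 more genes of the family (below it), in cerebellum and in striatum; Slc16a5 and Slc16a8 did not pass the filter on low counts in striatum. Slc16a11 lies at -0.54 in cerebellum and 0.43 in striatum, and Slc16a6 at 0.71 in cerebellum and -0.16 in striatum.

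The cerebellar minus striatal genotype effects of the other 6, given with no test, were 0.86 for Slc16a6 (SE 0.276), 0.68 for Slc16a9 (SE 0.269), 0.10 for Slc16a1 (SE 0.140), -0.06 for Slc16a7 (SE 0.226), -0.24 for Slc16a13 (SE 0.174) and -0.26 for Slc16a3 (SE 0.421). Slc16a6 and Slc16a9 thus had larger log2 fold changes in cerebellum than in striatum, and Slc16a11 a lower one. Without striatal WT replicate 1 the difference was 0.72 for Slc16a6, 0.63 for Slc16a9, 0.08 for Slc16a1, -0.36 for Slc16a7, -0.16 for Slc16a13 and -0.97 for Slc16a11. For Slc16a3 it turned sign, to 0.04 (SE 0.355).

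All 7 genes differed between regions in the test averaged over genotypes, 4 higher and 3 lower in cerebellum. This count reads against a background in which 77.4% of 15401 genes were called between the regions, 39.8% higher and 37.5% lower, so it is not a result about the family. Slc16a11, Slc16a9, Slc16a1 and Slc16a13 rose in cerebellum relative to striatum and did not overlap, Slc16a3 and Slc16a6 fell and did not overlap, and Slc16a7 fell with overlap. Libraries of the regions did not overlap for 6 of the 7 genes and for 54.2% of all genes. Each of the 7 kept its call and direction in all 19 alternative settings.

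Levels can be set between genes only per length, here as CPM per kb of exon. The length is the union of all annotated exons of a gene, for instance 11839 bases for Slc16a7 and 2554 for Slc16a11. The annotation used for the counts is not given, so the orders and shares below depend on this choice of length. In cerebellum Slc16a11 came first of the 7, at 19.8 ± 2.25 CPM per kb in cKO and 28.9 ± 1.54 in WT, and Slc16a1 came second, at 15.5 ± 0.511 in cKO and 14.8 ± 0.592 in WT (SD, n = 4 each). The 2 genes did not overlap in either genotype. Slc16a11 made up 43.4% of the summed level per kb of the 7 genes in cerebellar cKO and 54.3% in cerebellar WT. Slc16a13 followed at 3.31 CPM per kb in cKO and 3.83 in WT. Slc16a6 at 3.29 in cKO and 2.01 in WT came before Slc16a9 in cKO and after it in WT, where Slc16a9 stood at 2.76 in cKO and 2.50 in WT. The ranges of Slc16a13, Slc16a6 and Slc16a9 overlapped from one to the next in cKO, and those of Slc16a9 and Slc16a6 did in WT. Slc16a7 at 0.774 in cKO and 0.895 in WT, and Slc16a3 at 0.164 in cKO and 0.177 in WT, closed the cerebellar order with no overlap.

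In striatum Slc16a1 came first, at 7.45 ± 1.51 CPM per kb in cKO and 7.61 ± 0.560 in WT, followed by Slc16a6 at 5.89 ± 0.988 in cKO and 6.56 ± 1.28 in WT and by Slc16a11 at 4.52 ± 0.386 in cKO and 3.33 ± 0.0921 in WT (SD, n = 3 each). Neighbours among these 3 overlapped in cKO, while in WT Slc16a11 lay below Slc16a6 with no overlap. Slc16a11 made up 20.1% of the summed level of the 7 in striatal cKO and 14.8% in striatal WT. Slc16a13 followed at 1.92 in cKO and 1.88 in WT, apart from its neighbours in both. Slc16a7, Slc16a9 and Slc16a3 lay between 0.857 and 1.03 CPM per kb in cKO and between 0.775 and 1.26 in WT, each overlapping the next.

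**Figure D3:**
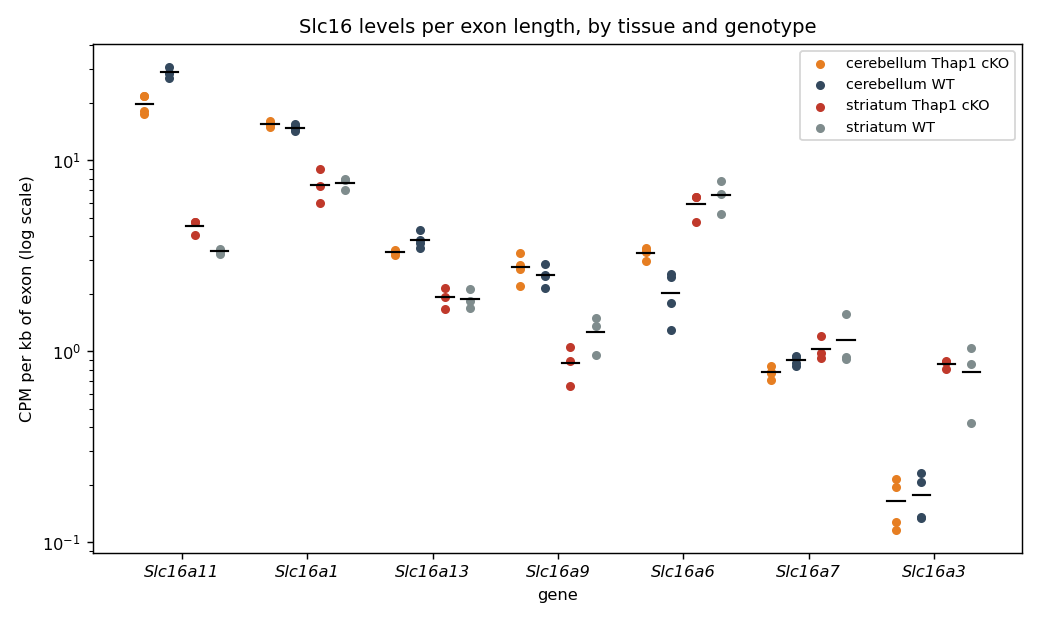
CPM per kb of exon on a log scale for the 7 genes, with points for libraries and a line at the mean of each group. Slc16a11 leads in cerebellum at 19.8 in cKO and 28.9 in WT, and Slc16a1 leads in striatum at 7.45 in cKO and 7.61 in WT.

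The genes whose profile over the 14 libraries lay closest to that of Slc16a11 were found by the root mean square difference of centred log2 CPM among 14055 genes with a mean of at least 1 CPM. They were Chrd at 0.123, Cdc42bpg at 0.188, Tle2 at 0.192, Dnahc11 at 0.195 and Aifm3 at 0.201. Chrd, which encodes the BMP antagonist chordin, averaged 29.5 CPM in cerebellar cKO and 39.3 in cerebellar WT, and 6.03 CPM in striatal cKO and 4.59 in striatal WT. Cdc42bpg, Dnahc11 and Aifm3, like Chrd, had means lower in cKO than in WT in cerebellum and higher in striatum, the directions of the profile they were chosen to match. Tle2, a transcriptional corepressor gene, averaged 66.0 CPM in cerebellar cKO and 90.6 in cerebellar WT, and 11.6 CPM in striatal cKO and 11.97 in striatal WT. All of these profiles come from the same 14 libraries, and the likeness says nothing of shared control.

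Neighbours were sought only among genes with a row in the counts. Around Slc16a11, the nearest such gene on the lower side is Clec10a, 41917 bases away, which encodes a macrophage lectin. Beyond Slc16a13 the nearest is Bcl6b, 3063 bases away, a transcriptional repressor gene. Clec10a fell in cerebellum, with 0.499 ± 0.120 CPM in cKO and 1.203 ± 0.224 in WT (SD, n = 4 each), or 7 to 15 and 18 to 32 counts (log2 fold change -1.24, SE 0.252, edgeR adjusted p = 0.00556). Bcl6b had a cerebellar log2 fold change of -0.15 (edgeR adjusted p = 0.620). A window of 500 kb on each side was added after these values were seen. In cerebellum 43 genes of it besides Slc16a11 were tested, of which 0 rose and 3 fell, with a median log2 fold change of -0.04 against 0.00437 over all genes, and over all genes 2.63% rose and 4.96% fell. The other 2 were Mgl2, a lectin gene closely related to Clec10a with which it can share reads, at -1.34 (edgeR adjusted p = 0.0165), and Dlg4, the gene of the postsynaptic scaffold PSD-95, at -0.15 (edgeR adjusted p = 0.0117). With all 14 samples in 1 model the Dlg4 call was lost (adjusted p = 0.1295), within a range of 1.994e-05 to 0.1295 over its alternatives. The Mgl2 call was lost without cerebellar WT replicate 3 (adjusted p = 0.0542), without cerebellar cKO replicates 1, 2 or 3 (0.0541, 0.0593 and 0.0548) and with all 14 samples in 1 model (0.0728), over a range of 0.00081 to 0.0728 in all alternatives. In striatum 36 genes of the window were tested and 0 were called, with 26 positive and 10 negative log2 fold changes and a median of 0.09.

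Of 6 other genes of the family, 1 was called between genotypes in cerebellum, and 0 of the 4 tested were called in striatum, against the background of 7.59% and 0.384%. Slc16a10, which carries aromatic amino acids, had 5.01, 5.96, 5.99 and 5.25 CPM in cerebellar cKO libraries, against 6.95, 7.03, 7.40 and 8.11 CPM in cerebellar WT libraries. Every cKO library was below every WT library, and the gene fell to 75.8% of WT (log2 fold change -0.40, SE 0.0982, edgeR adjusted p = 0.0189). The call was lost without cerebellar WT replicate 3 or 4 (adjusted p = 0.0515 and 0.0652), without cerebellar cKO replicate 1 or 4 (0.0652 and 0.0638) and with all 14 samples in 1 model (0.299), within a range of 0.0167 to 0.299 over 14 alternatives. In striatum Slc16a10 had 7 to 22 counts in cKO libraries and 13 to 17 in WT libraries, and its log2 fold change was -0.01 (SE 0.436).

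Between regions, 5 of these 6 were higher in cerebellum and 1 was not called, against 77.4% of all 15401 genes called and 39.8% higher in cerebellum. Slc16a10 was higher by 2.35 on the log2 scale (SE 0.170, edgeR adjusted p = 1.563e-09), Slc16a4 by 1.14 and Slc16a14 by 1.02. Slc16a12, a creatine carrier gene, was the one not called (0.16, edgeR adjusted p = 0.376). Slc16a5 had 51 to 70 counts in cerebellar cKO and 47 to 77 in cerebellar WT libraries, and 0 in all 6 striatal libraries. Slc16a8, a lactate carrier gene of retinal pigment epithelium and choroid plexus, had 21 to 75 counts in cerebellar cKO and 4 to 61 in cerebellar WT, and 1 to 3 in striatal cKO and 0 in striatal WT. The regions overlapped for Slc16a8, with 0.175 CPM in cerebellar WT replicate 3 and up to 0.217 CPM in striatal cKO.

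Genes that work with these transporters were read from lists of named enzymes and carriers. The 3 partner glycoproteins that bring transporters to the membrane, Bsg (basigin), Emb (embigin) and Nptn (neuroplastin), gave 0 calls between genotypes in either region, with median log2 fold changes of -0.03 in cerebellum and 0.01 in striatum. Among 15 genes of lactate and pyruvate metabolism, 1 rose and 1 fell in cerebellum, with a median log2 fold change of 0.07. These counts and those of the next lists stand beside 2.63% of all genes higher and 4.96% lower in cerebellum. Ldha, the lactate dehydrogenase subunit that favours lactate formation, fell to 93.4 ± 3.87 CPM in cerebellar cKO, against 104 ± 3.77 in WT (SD, n = 4 each, log2 fold change -0.14, SE 0.0387, edgeR adjusted p = 0.0346). Pcx, pyruvate carboxylase, rose to 126 ± 3.42 CPM in cerebellar cKO, against 117 ± 2.08 in WT (SD, n = 4 each, log2 fold change 0.12, SE 0.0319, edgeR adjusted p = 0.0311).

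Among 15 tested glycolysis genes 1 rose in cerebellum and 0 fell, with a median of 0.01. It was Hk2, a hexokinase, at 23.1 ± 0.960 CPM in cerebellar cKO and 19.5 ± 0.951 in WT (SD, n = 4 each, log2 fold change 0.26, SE 0.0584, edgeR adjusted p = 0.0122). In the same list Gapdh averaged only 2.78 CPM in cerebellar cKO and 3.35 in cerebellar WT, against 920 and 906 for Aldoa. Pgk1, at 11.35 in cKO and 11.49 in WT, and Pgam1, at 23.15 and 22.39, were also far below Aldoa. Eno1, the listed gene besides the 15, was not tested for genotype in either region. The cause of these low counts was not tested, and they limit what the list can show. Among 5 ketone body genes 1 rose in cerebellum. It was Acat1, the mitochondrial thiolase of ketone body use and synthesis, which averaged 107 ± 3.41 CPM in cerebellar cKO and 98.1 ± 2.19 in WT (SD, n = 4 each, log2 fold change 0.13, SE 0.0347, edgeR adjusted p = 0.0256). With the replicate number as a block, 2 ketone body genes rose and 1 carrier of carnitine, creatine or thyroid hormone rose, of 7 that gave 0 calls without it.

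These called shifts were small, at most 0.26 on the log2 scale, and several depended on single libraries. The Ldha call was lost without cerebellar WT replicate 1 or 3 or cerebellar cKO replicate 1, 2 or 4 (adjusted p from 0.0537 to 0.139) and with limma-voom (0.0523), and the Pcx call without cerebellar WT replicate 2 or 3 or cerebellar cKO replicate 2, 3 or 4 (0.0572 to 0.0919). The Acat1 call was lost without cerebellar WT replicate 3 or cerebellar cKO replicate 2 or 4 (0.0822 to 0.0893). Hk2 kept its call without any 1 library, and all 4 genes lost their calls with all 14 samples in 1 model. Over all 14 alternatives the adjusted p ran from 0.0193 to 0.638 for Ldha, 0.016 to 0.547 for Pcx, 0.0069 to 0.157 for Hk2 and 0.0132 to 0.534 for Acat1. In striatum all of these lists gave 0 calls, with medians of 0.06 for lactate and pyruvate and 0.11 for glycolysis genes, against 0.00236 over all genes. A list of 5 genes held other lactate, ketone and glucose carriers and the lactate receptor. In cerebellum 3 of them were tested, the glucose carrier genes Slc2a1 and Slc2a3 and the receptor gene Hcar1, with 0 calls. In striatum the 2 tested were Slc2a1 and Slc2a3, with 0 calls as well. The listed carrier genes Slc5a8 and Slc5a12 were tested for genotype in neither region, so nothing is known here of their genotype effects.

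**Figure D4:**
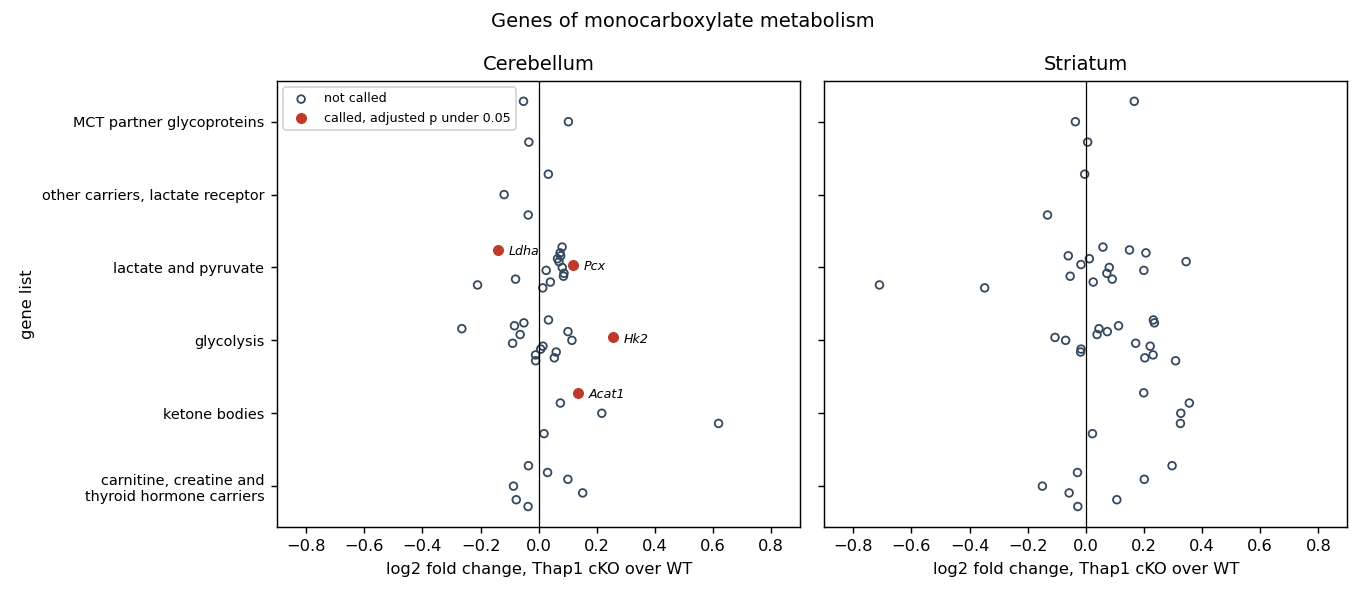
Log2 fold change, Thap1 cKO over WT, of each tested gene of 6 lists around monocarboxylate metabolism, in cerebellum and in striatum, with called genes filled and named. The 4 called genes are all in cerebellum and lie between -0.14 and 0.26.

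Marker lists of other cell types moved with genotype beside these values. Of all genes in cerebellum, 2.63% were called higher and 4.96% lower, and 14.2% did not overlap between genotypes. In striatum 0.384% were called and 15.1% did not overlap. Summed mature oligodendrocyte markers were lower in cKO in both regions without overlap, at 4260 to 4793 CPM in cerebellar cKO and 4912 to 5463 in cerebellar WT, with 7 of 10 genes called lower, and at 4980 to 6181 CPM in striatal cKO and 7809 to 9493 in striatal WT, with 4 of 10 called lower. Summed meningeal markers were higher in cerebellar cKO, at 298.5 to 371.5 CPM against 203.6 to 262 in WT, with 2 of 7 called higher. Pericyte, ependymal and Purkinje cell sums did not overlap there either, with cKO higher. Called higher were 1 of 5 pericyte, 0 of 5 ependymal and 1 of 5 Purkinje cell genes. The called Purkinje cell gene was Itpr1, at 5697 CPM in cKO and 5162 in WT, within sums of 9920 to 10770 and 9263 to 9816. Pcp2 was at 101% of WT. In striatum the oligodendrocyte precursor sum was lower in cKO without overlap, with 0 of 5 genes called. Its members were unlike, with Olig2 at 80.9% of WT, Olig1 at 84.9% and Cspg4 at 87.9%, but Pdgfra at 97.5% and Gpr17 at 103%. Purkinje cell markers do not measure that cell type in striatum, where Pcp2 was at 0. Choroid plexus sums ran from 716 to 3466 CPM in cerebellar cKO and from 39.1 to 2129 in cerebellar WT. Granule cell, astrocyte, microglia and endothelial sums overlapped between genotypes in both regions, granule cells at 5399 to 5748 CPM in cerebellar cKO and 5626 to 6490 in cerebellar WT. Of the 7 granule cell markers 1 was called lower in cerebellar cKO, Fat2 at 82.7% of WT (edgeR adjusted p = 0.00552). That list had 5 negative and 2 positive log2 fold changes in cerebellum, with a median of -0.12. Single astrocyte markers differed all the same, with 3 of 9 called higher in cerebellar cKO, namely Gfap at 176% of WT, Aqp4 at 145% and Gja1 at 119%, and 2 called lower, namely Slc1a3 at 87.0% and S100b at 85.3%. In striatum Gfap averaged 201 ± 59.3 CPM in cKO and 67.2 ± 21.6 in WT (SD, n = 3 each, edgeR adjusted p = 0.0593), and 0 of the 9 were called. No list had a marker at 0 in all libraries of a cerebellar group. Their part in the Slc16 values was not tested.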

How the data were processed

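RNA from dissected cerebellum and striatum was sequenced, and for each of the 14 samples the authors deposited unnormalized read counts per gene symbol. The submitters' processing notes name build mm10, HTSeq 0.6.1p1, STAR, cutadapt 1.13 and DESeq2, with no role or order. Not given in the sources used here are the STAR version, the annotation and the strand setting. The 7 genes, the gene lists and the tests were chosen with earlier results of these data known.

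Counts were tested with edgeR 4.0.16 (robust quasi-likelihood test, TMM factors, filterByExpr with a minimum count of 10 and a minimum total of 15) in R 4.3.3, each region alone for genotype, and all 14 samples with 1 coefficient per group for the regions and for the difference of genotype effects. P-values were Benjamini-Hochberg adjusted over all genes tested, and genes under 0.05 were called; SE is that of the log2 fold change. The models were also run on simulated counts, drawn with the dispersions that edgeR estimated from these libraries. Such counts follow the model that is fitted, so the run does not bear on whether the calls are right. Alternatives were size factors by the DESeq2 method, no filter, DESeq2 1.42.0, limma-voom (limma 3.58.1), a replicate block, 1 model of all samples, and leaving out each sample. DESeq2 and limma-voom used the filtered counts. Exon length is the union of GENCODE vM21 exons on GRCm38. In the lists, 5 symbols were matched through RefSeq synonyms. Same-numbered cerebellar samples of the 2 genotypes deviated together over genes (correlations of 0.367, 0.179, 0.102 and 0.252). The labels do not say whether the numbers pair samples, and the reported tests left any pairing out. It entered only through the replicate block. No 2 replicates of a group agreed within sampling noise (chi-square over degrees of freedom 5.93 or more).

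The genes named were the 7 members, Thap1, the called genes of the family and metabolic lists (up to 4 a list), genes overlapping or next to members, and the 5 closest profiles. Slc16a4, Slc16a5, Slc16a8, Slc16a12, Slc16a14, Gapdh, Aldoa, the 3 partner glycoproteins and the genes of the 500 kb window are named besides. So are Slc2a1, Slc2a3, Hcar1, Slc5a8, Slc5a12, Pgk1, Pgam1, Eno1 and single marker genes. Some genes of the family and of the ketone body list are not reported here, and the counts of those lists leave them out.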

Additional observations from a re-analysis of the deposited data

Results flagged for a closer look

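Slc16a11 and Slc16a6 had genotype differences of opposite direction in the 2 regions when every cKO library was set against its regional WT mean. For Slc16a11, all 4 cerebellar cKO libraries lay below the cerebellar WT mean and all 3 striatal cKO libraries above the striatal WT mean, and the cerebellar log2 fold change minus the striatal one was -0.987. For Slc16a6, all 4 cerebellar cKO libraries lay above the cerebellar WT mean and all 3 striatal cKO libraries below the striatal WT mean with all libraries kept, and the difference was 0.86. The striatal genotypes overlapped for Slc16a6, and its striatal side rested on WT replicate 1 at 38.0 CPM. The other WT libraries had 25.5 and 32.5 CPM, and without replicate 1 cKO libraries at 31.6 and 31.5 CPM lay above the WT mean, the striatal log2 fold change was -0.01 and the difference 0.72. The difference was not tested for either gene, because the 7 genes were chosen with this contrast known. In 14 sets of 4 cerebellar libraries, 1 per gene and genotype, 0 held a library far from the other 3.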

How the results depend on the processing

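The values of the 7 genes over all 4 comparisons came to 447 under the alternatives. Of these, 434 kept their direction and their side of the threshold or stayed within the replicate spread. Among the 447 are the genotype values of Slc16a11 and the differences of genotype effects, which have no p. These were known when the genes were chosen, so the count gives no support for them. Slc16a6 in cerebellum passed the threshold in 4 of the alternatives. Genes called between genotypes in striatum numbered 54, against 153 with DESeq2, 376 with all 14 samples in 1 model, 15 with the replicate block, and 3 to 122 without 1 library (122 without WT replicate 1, 12 without WT replicate 3 or cKO replicate 2, 3 without cKO replicate 1 or 3). In cerebellum there were 1121, against 251 in 1 model and 739 to 1165 without 1 library (739 without WT replicate 3 and 744 without cKO replicate 2). The difference of genotype effects between regions called 60 genes, against 228 with DESeq2, 1 with the replicate block (the genotype and replicate number across regions), and 17 to 193 without 1 library. The 11913 genes called between regions stayed within 11193 to 12777. Same-numbered striatal samples correlated at 0.28, 0.163 and 0.0988, and the regions at -0.152 to 0.382. The striatal values were all positive, as were the cerebellar ones of 0.102 to 0.367. Whether same-numbered samples share an animal or a litter is not known for any of these comparisons. What a call lost under a block means was not tested. In cerebellum the block changed the 2 list counts given above and no call of the 7 genes. Log2 fold changes near 0 that were not called turned sign when 1 library was left out, and the cause was not tested. In striatum they ran from -0.198 to 0.0996 for Slc16a1 (positive without cKO replicate 1), -0.156 to 0.414 for Slc16a3 and -0.292 to 0.157 for Slc16a7 (both turned without WT replicate 1), -0.0724 to 0.116 for Slc16a13 (negative without WT replicate 1 or cKO replicate 2), -0.342 to 0.387 for Slc16a10 (positive without WT replicate 1 or cKO replicate 1) and -0.0402 to 0.0575 for Amz2 (negative without WT replicate 1 or cKO replicate 1 or 3). In cerebellum they ran from -0.273 to 0.032 for Slc16a3 (positive without WT replicate 2 or cKO replicate 3) and -0.0643 to 0.0392 for Arsg (positive without WT replicate 3 or 4 or cKO replicate 2). Depth limits Slc16a3 in both regions and Slc16a9, Slc16a11 and Slc16a13 in striatum most, where 1 library holds 15 to 168 counts. Thap1 passed the threshold in striatum under 5 of 12 alternatives and missed it in cerebellum under 10 of 14.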

Other observations

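Genes around the transporters also differed between the regions with both genotypes averaged; these were picked after their values were seen, from a background in which 77.4% of genes were called. Of the partner glycoprotein genes, Bsg averaged 464 ± 26.5 CPM in cerebellar cKO and 485 ± 8.45 in cerebellar WT, and 330.5 ± 11.1 CPM in striatal cKO and 293 ± 53.7 in striatal WT (log2 difference 0.59, SE 0.0655, edgeR adjusted p = 3.769e-07). Emb averaged 55.4 ± 6.14 CPM in cerebellar cKO and 51.9 ± 5.29 in cerebellar WT, and 22.1 ± 2.71 CPM in striatal cKO and 22.6 ± 2.93 in striatal WT. Both were thus higher in cerebellum, while Nptn, the third partner, was lower there (log2 difference -0.37, SE 0.0511, edgeR adjusted p = 4.779e-06).

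Ldha and the glucose transporter gene Slc2a1 were lower in cerebellum, by log2 differences of -0.95 (SE 0.0769, edgeR adjusted p = 1.196e-08) and -1.15 (SE 0.0549, edgeR adjusted p = 6.226e-12), while Hk2 was higher by 2.07 (SE 0.0714, edgeR adjusted p = 7.618e-14). Slc22a4, a carrier of ergothioneine and carnitine, averaged 73.3 ± 2.24 CPM in cerebellar cKO and 75.7 ± 3.80 in cerebellar WT (SD, n = 4 each), and 6.12 ± 1.08 CPM in striatal cKO and 4.97 ± 1.05 in striatal WT (SD, n = 3 each). Bsg, Emb, Ldha, Slc2a1, Hk2 and Slc22a4 each kept their direction and call in all 19 alternative settings.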
